A study of Mus musculus with 6 samples.

Results

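Fatty acid desaturases put double bonds into fatty acyl chains, and elongases lengthen the chains. The genes described here are the stearoyl-CoA desaturases Scd1, Scd2 and Scd3, the front-end desaturase family Fads1, Fads2 and Fads3, and the elongases Elovl1, Elovl5 and Elovl6. They were chosen by name, with earlier results of these data known. Of the 9, 6 had values: Scd1, Scd2, Scd3, Fads2, Fads3 and Elovl1. They are 6 of 13734 genes with values, and all 6 passed the filter on low values with 10054 genes in total. Fads1, Elovl5 and Elovl6 are not analysed here, so a statement on the 6 genes does not cover the family.

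Poly(A) RNA was sequenced from cultured mouse white fat cells to ask how loss of DICER, the RNase that matures microRNAs, alters lipid metabolism. The DICER_KO group (3 libraries) carried Dicer1 flox/flox and Cre-ERT2 and received 10 µM 4-hydroxytamoxifen for 48 h from day 6 of differentiation. The control group (3 libraries), titled WT control in the labels, is listed there with the same floxed genotype and Cre-ERT2 and received ethanol instead. Both groups had been differentiated with dexamethasone, IBMX, indomethacin, T3, insulin and the PPARγ agonist rosiglitazone, and both received 10 µM isoproterenol, a beta-adrenergic agonist, for 6 h. Every library came from 1 immortalized subcutaneous line, and no control received 4-hydroxytamoxifen, so the deletion and the drug cannot be told apart. The labels number biological replicates without saying that cultures were differentiated separately, so a p-value speaks of the spread among these 6 libraries.

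Stearoyl-CoA desaturase makes the monounsaturated palmitoleate and oleate from saturated acyl-CoA, and in fat cells its products enter triglycerides, phospholipids and cholesterol esters. The enzymes sit in the endoplasmic reticulum membrane, take electrons from cytochrome b5 and its reductase, and bind iron through histidine-rich boxes. Scd1 is a well known target of SREBP-1c, LXR and insulin signalling, and it rises strongly when preadipocytes become adipocytes. Fads2 starts the conversion of dietary linoleic and alpha-linolenic acid into longer polyunsaturated fatty acids, and Elovl enzymes carry out the condensation that lengthens a fatty acyl-CoA.

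The 3 Scd genes are close copies, which bears on how reads are assigned to them, so the stretch around a histidine box is shown for each of the 6 genes. A box was found by its pattern of histidines alone, so the iron binding described for the desaturases is not implied for the elongase Elovl1. The sequences are 45 coding bases from the GENCODE M21 transcripts (GRCm38), 5′ to 3′, with the 3 histidine codons of the box in capitals.
Scd1: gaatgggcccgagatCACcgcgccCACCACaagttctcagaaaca
Scd2: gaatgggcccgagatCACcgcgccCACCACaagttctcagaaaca
Scd3: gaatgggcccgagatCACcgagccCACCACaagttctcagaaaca
Fads2: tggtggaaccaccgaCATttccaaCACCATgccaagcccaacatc
Fads3: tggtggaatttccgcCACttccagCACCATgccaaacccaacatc
Elovl1: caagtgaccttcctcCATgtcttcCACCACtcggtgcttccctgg
The Scd1 and Scd2 stretches differed at 0 of 45 bases, and Scd3 differed from either at 1 of 45. Each Scd gene has a second such box, not printed, where the copies differ more: Scd1 and Scd2 at 2 of 45 bases, Scd1 and Scd3 at 4, and Scd2 and Scd3 at 2. The boxes shown lie at codons 153 to 157 of Scd1, 156 to 160 of Scd2 and 157 to 161 of Scd3. Over the whole coding sequence, identity was 91.5% between Scd1 and Scd3, 90.4% between Scd1 and Scd2 and 88.3% between Scd2 and Scd3. Fads2 and Fads3 shared 69.8% of coding bases. A single read of 150 bases can be assigned only where the copies differ: 36 of 4683 windows of that length in the Scd1 transcript (0.769%) were also found whole in Scd3, which is 36 of 3340 Scd3 windows (1.08%). Scd2 shared 0 such windows with Scd1 or Scd3.

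The libraries held 13569034, 18443315 and 30268077 reads on genes in DICER_KO replicates 1 to 3, and 17219155 to 17680469 in controls. Dicer1 read 5.43 to 5.49 log2 CPM (log2 of reads scaled to library size) in DICER_KO and 6.09 to 6.14 in controls, with a log2 difference of -0.66 (SE 0.10, limma adjusted p = 0.0150). DICER_KO replicate 3 stood apart from the other DICER_KO libraries in markers of the labelled cell type. The 13 mature adipocyte markers with values, among them Fabp4, Adipoq and Plin1, summed to 12801, 12674 and 3871 CPM in DICER_KO replicates 1 to 3, against 8851, 7692 and 9636 CPM in controls 1 to 3. Of these 13, 11 lay above the control mean in DICER_KO replicates 1 and 2 and 13 below it in replicate 3. Lpl and Car3 lay below it in all 3, with Car3 at -1.85, -1.11 and -4.33 log2. Brown and beige adipocyte markers (6 of 7 with values) summed to 53.3, 51 and 13.9 CPM in DICER_KO, against 30.1, 25.9 and 27.7 CPM in controls. The 4 of them that were tested had medians of 0.95, 0.77 and -1.12 log2 against the control mean. Of the 6, 4 lay above the control mean in DICER_KO replicates 1 and 2 and 4 below it in replicate 3. Elovl3 lay below it in all 3. Preadipocyte and fibroblast markers (12 of 13 with values) summed to 6173, 6882 and 5309 CPM in DICER_KO, against 9564, 10660 and 9319 CPM in controls. Over the 10 of these that were tested, medians against the control mean were -0.21, -0.04 and -0.58 log2. Lum and Dpp4, under 1 CPM in every library, were left out of these medians. The sum was carried by matrix genes such as Col1a1 (log2 difference -0.70) and Col3a1 (-1.44). Of the 12, 7 lay below the control mean in all 3 DICER_KO libraries, and 2 lay above it in replicates 1 and 2. Among the 7 was the surface marker Thy1 (-0.46), while Pdgfra (-0.06) and Pdgfrb (0.02) were near 0. Macrophage markers (5 of 8 with values, Lyz2 and Mrc1 under 1 CPM in every library) summed to 38.5 to 39.7 CPM in DICER_KO and 33.6 to 38.6 CPM in controls. Endothelial markers (5 of 6, Pecam1, Cdh5 and Vwf under 1 CPM in every library) summed to 6.85 to 8.88 CPM in DICER_KO and 5.54 to 6.41 CPM in controls. Most of that sum was Tek, with 5.6, 7.35 and 6.32 CPM in DICER_KO and 4.28, 3.99 and 3.8 CPM in controls. Kdr went the other way, with 0.142, 0.474 and 1.05 CPM in DICER_KO and 1.26, 0.684 and 1.5 CPM in controls. Of the 5, 3 lay above the control mean in DICER_KO replicates 1 and 2. Pecam1 and Kdr lay below it in all 3 DICER_KO libraries. The difference of each of the 6 genes is therefore given with all 6 libraries and without DICER_KO replicate 3. That library was picked for leaving out because earlier results of these data had shown it apart. P-values without it rest on the spread left among the remaining libraries. For genes such as Scd1 that spread was smaller (SE 0.12 without it and 0.36 with all libraries). In bulk RNA, fewer cells of a type and less RNA per cell cannot be told apart.

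Scd3 was the 1 gene of the family that passed the test with all libraries, and it was higher in DICER_KO. Scd1 and Scd2 were higher in DICER_KO replicates 1 and 2 than in any control and lower in replicate 3. Fads2, Fads3 and Elovl1 did not pass in either fit. With all libraries 1 of 6 was called higher and 0 lower, where 0.149% of all genes tested were called higher (15 of 10054) and 0.288% lower (29). Without DICER_KO replicate 3, 3 of 6 were called higher and 0 lower, where 12.5% of all genes were called higher and 7.22% lower. Calls are limma tests on log2 CPM with a Benjamini-Hochberg adjusted p under 0.05 over all genes tested. The median log2 difference over the 6 genes was 0.13 with all libraries and 0.22 without DICER_KO replicate 3, against 0.02 over all genes tested in both fits.

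**Figure D1:**
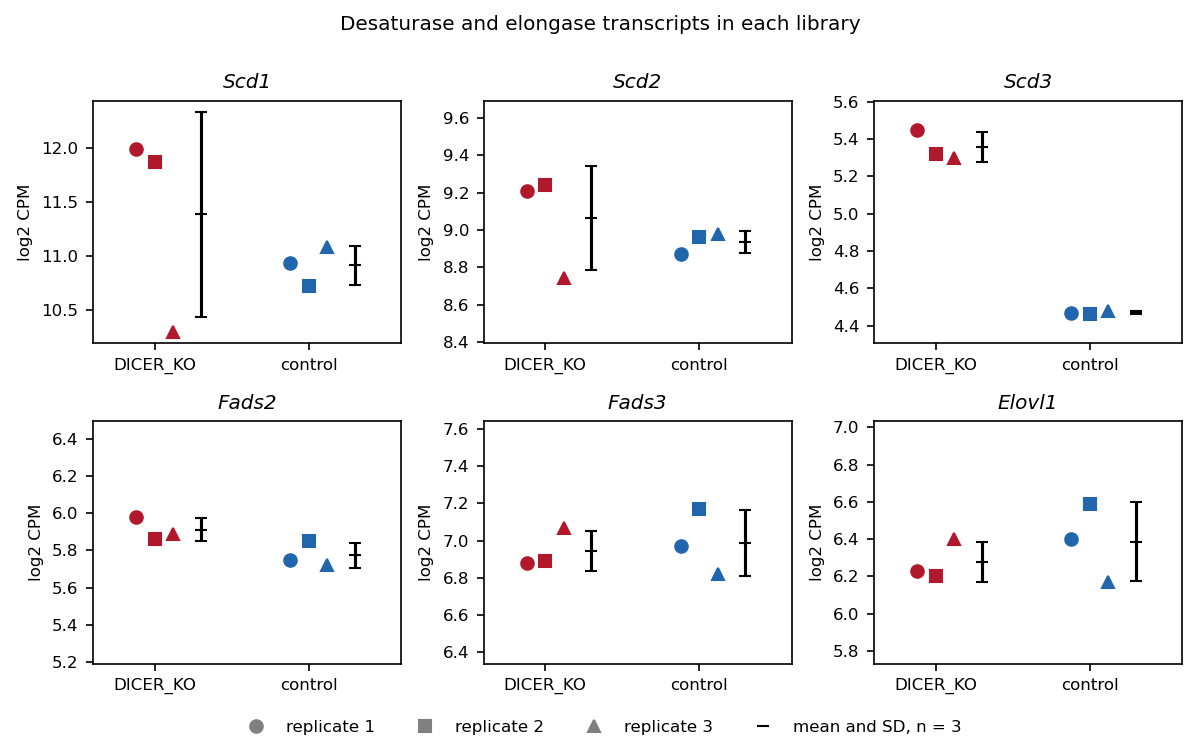
Level of each gene (log2 CPM) in DICER_KO (red) and control (blue) libraries, with symbols for the replicate number and black bars for the mean and SD (n = 3 each). Scd3 read 5.30 to 5.45 in DICER_KO and 4.46 to 4.48 in controls, while the Scd1 and Scd2 triangles for DICER_KO replicate 3 lie below every control.

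Scd1, the main stearoyl-CoA desaturase of fat and liver (Entrez 20249; GRCm38 chromosome 19, 44394450 to 44407709, minus strand), had 11.99, 11.87 and 10.29 log2 CPM in DICER_KO replicates 1 to 3, against 10.93, 10.72 and 11.08 log2 CPM in controls 1 to 3. DICER_KO replicates 1 and 2 lay above all controls and replicate 3 lay below all of them, so the groups overlapped. In CPM these were 4063, 3752 and 1248 in DICER_KO and 1949, 1683 and 2168 in controls. The log2 difference with all libraries was 0.47 (SE 0.36, 95% interval -0.33 to 1.28, limma adjusted p = 0.506), which is within the spread of the DICER_KO libraries (SD 0.95). Without DICER_KO replicate 3 it was 1.02 (SE 0.12, 95% interval 0.76 to 1.28, limma adjusted p = 4.4e-05), a 2.03-fold higher level. The median of the adipocyte markers against the control mean was 0.59, 0.61 and -1.16 log2 in DICER_KO replicates 1 to 3, with Lpl and Car3 as the exceptions given above, and the value of Scd1 was 1.08, 0.96 and -0.62. The part of these markers in the Scd1 values was not tested.

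Scd2, the isoform known from brain and from early skin and liver (Entrez 20250; chromosome 19, 44293676 to 44306864, plus strand), varied in the same direction with a smaller span. It had 9.21, 9.24 and 8.74 log2 CPM in DICER_KO replicates 1 to 3, against 8.87, 8.96 and 8.98 log2 CPM in controls 1 to 3. As for Scd1, DICER_KO replicates 1 and 2 were above and replicate 3 below the controls. The log2 difference was 0.13 with all libraries (SE 0.14, 95% interval -0.18 to 0.44, limma adjusted p = 0.645) and 0.29 without DICER_KO replicate 3 (SE 0.10, limma adjusted p = 0.0459). An annotated microRNA gene, Mir5114, overlaps 61 exon bases of Scd2 on the same strand.

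Scd3, a desaturase of skin and Harderian gland in mice (Entrez 30049; chromosome 19, 44203288 to 44244016, plus strand), had 5.45, 5.32 and 5.30 log2 CPM in DICER_KO replicates 1 to 3, against 4.47, 4.46 and 4.48 log2 CPM in controls 1 to 3. Every DICER_KO library lay above every control, replicate 3 included, and the controls spanned 0.01 log2. Scd3 averaged 41.0 CPM in DICER_KO and 22.2 CPM in controls. The log2 difference was 0.88 (SE 0.10, 95% interval 0.65 to 1.12, limma adjusted p = 0.00856), a 1.84-fold higher level and rank 5 by p among the genes tested. Without DICER_KO replicate 3 it was 0.91 (limma adjusted p = 4.21e-05). The call was lost without control replicate 1 (limma adjusted p = 0.0526) or control replicate 3 (0.0786), with differences of 0.88 and 0.89.

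Reads shared with Scd1 could make up a large part of the Scd3 count, because Scd1 had 31.7 to 93.9 times as many reads in DICER_KO and 76.3 to 97.3 times as many in controls. If Scd1 reads fell evenly over its transcript, the windows identical in Scd3 would hold 549, 700 and 406 Scd1 reads in DICER_KO replicates 1 to 3 and 352, 293 and 384 in controls 1 to 3. The Scd3 row held 766, 970 and 1666 reads in DICER_KO and 521, 500 and 513 in controls. The libraries were read in pairs, and a pair with 1 mate outside the identical run can be placed, so these single-read numbers can be too high. Whether the counting gave such reads to Scd3, to Scd1 or to neither is not given in the sources used here. With those reads taken away, 217, 270 and 1260 were left in DICER_KO and 169, 207 and 129 in controls, or 3.62, 3.48 and 4.90 log2 CPM in DICER_KO and 2.85, 3.19 and 2.49 log2 CPM in controls. Every DICER_KO library still lay above every control, but the spread was wider and the log2 difference of 1.15 did not pass (limma adjusted p = 0.158). In DICER_KO replicate 3, Scd1 was below all controls and Scd3 above all of them. The level of Scd3 is uncertain for this reason in every library.

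**Figure D2:**
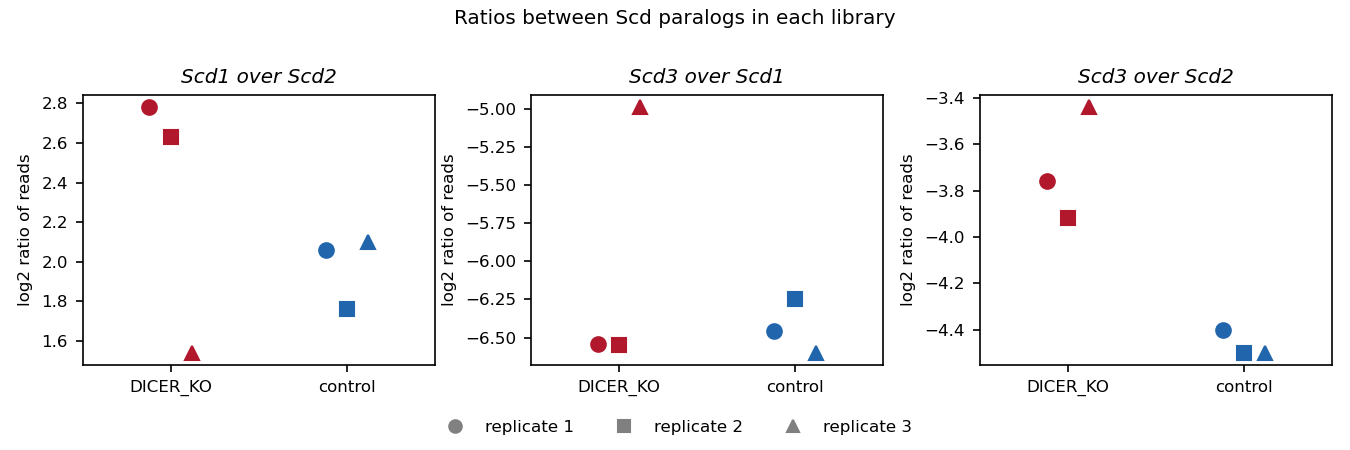
Log2 ratio of reads between pairs of Scd genes in DICER_KO (red) and control (blue) libraries, with symbols for the replicate number. Scd3 over Scd2 lies at -3.92 to -3.44 in DICER_KO and -4.50 to -4.40 in controls, and DICER_KO replicate 3 is the lowest library for Scd1 over Scd2 (1.54) and the highest for Scd3 over Scd1 (-4.99).

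The make-up of the summed Scd reads varied with the library. Scd1 gave 86.5%, 85.3% and 72.7% of them in DICER_KO replicates 1 to 3, against 79.9%, 76.4% and 80.4% in controls 1 to 3. Scd2 gave 12.6%, 13.7% and 25.0% in DICER_KO, against 19.1%, 22.6% and 18.7% in controls. DICER_KO replicates 1 and 2 thus had the highest Scd1 shares and replicate 3 the lowest. Scd3 gave 0.927%, 0.909% and 2.29% in DICER_KO and 0.826% to 1.00% in controls. The summed Scd level was 4697, 4397 and 1716 CPM in DICER_KO, against 2438, 2203 and 2696 CPM in controls. Scd4, the isoform known from mouse heart, had 0 to 7 reads in DICER_KO libraries and 0 to 3 in controls and was not tested.

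Ratios within a library do not depend on its scaling. The log2 ratio of Scd1 to Scd2 was 2.78, 2.63 and 1.54 in DICER_KO and 2.06, 1.76 and 2.10 in controls, a difference of 0.35 (two-sided exact permutation test, p = 0.4, adjusted over 3 ratios 0.6). Scd3 over Scd1 was -6.54, -6.55 and -4.99 in DICER_KO and -6.46, -6.25 and -6.60 in controls, and the groups overlapped (difference 0.41, exact permutation p = 0.8, adjusted 0.8). Scd3 over Scd2 was -3.76, -3.92 and -3.44 in DICER_KO and -4.40, -4.50 and -4.50 in controls. This ratio was tested after its values had been seen: it was higher in 3 of 3 DICER_KO libraries by 0.76, with an exact permutation p of 0.1, adjusted 0.3. With 3 libraries against 3 the smallest two-sided p possible is 0.1, so none of these ratios could pass.

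Fads2, the rate-limiting enzyme of polyunsaturated fatty acid synthesis (Entrez 56473; chromosome 19, 10062765 to 10101503, minus strand), had 5.98, 5.86 and 5.89 log2 CPM in DICER_KO replicates 1 to 3, against 5.75, 5.85 and 5.72 log2 CPM in controls 1 to 3. The groups did not overlap, but the nearest libraries, DICER_KO replicate 2 and control replicate 2, were 5.86 and 5.85. The log2 difference was 0.14 (SE 0.10, 95% interval -0.08 to 0.36, limma adjusted p = 0.484) and was 0.15 without DICER_KO replicate 3 (limma adjusted p = 0.308). Together with Scd3, 2 of 6 genes had every DICER_KO library above every control, as did 10.4% of all genes tested. In 0 of 6 was every DICER_KO library below every control, against 9.81% of all genes.

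Fads3, the family member known to place a double bond in the sphingoid base of ceramides (Entrez 60527; chromosome 19, 10040855 to 10060113, plus strand), had 6.88, 6.89 and 7.07 log2 CPM in DICER_KO replicates 1 to 3, against 6.97, 7.17 and 6.82 log2 CPM in controls 1 to 3. The DICER_KO values lay within the control range. The log2 difference of -0.05 was smaller than its error (SE 0.12, 95% interval -0.30 to 0.21, limma adjusted p = 0.856), and it turned to 0.05 without control replicate 2. Without DICER_KO replicate 3 it was -0.11 (limma adjusted p = 0.493).

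Elovl1, which makes very long saturated and monounsaturated chains for sphingolipids (Entrez 54325; chromosome 4, 118426874 to 118432953, plus strand), had 6.23, 6.20 and 6.40 log2 CPM in DICER_KO replicates 1 to 3, against 6.40, 6.59 and 6.17 log2 CPM in controls 1 to 3. The groups overlapped, and the controls spanned 0.41 log2 against 0.20 in DICER_KO. The log2 difference was -0.11 (SE 0.12, 95% interval -0.38 to 0.16, limma adjusted p = 0.652), and -0.17 without DICER_KO replicate 3 (limma adjusted p = 0.297). Cdc20 overlaps 53 exon bases of Elovl1 on the other strand, and reads there cannot be told apart if counting did not use strand, which is not stated. The intervals for Fads2, Fads3 and Elovl1 with all libraries leave room for log2 differences of up to 0.36, 0.21 and 0.16 upwards and -0.08, -0.30 and -0.38 downwards.

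**Figure D3:**
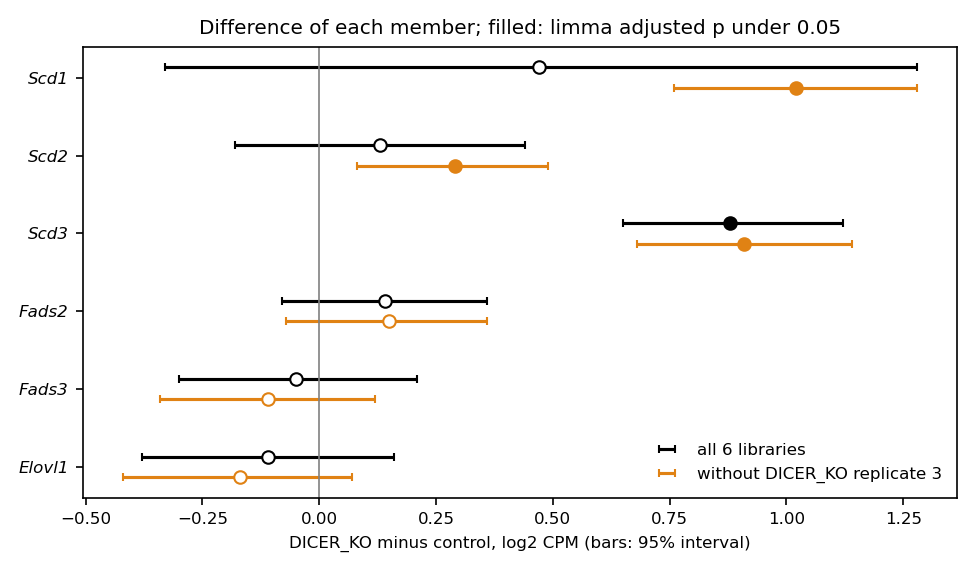
DICER_KO minus control difference of each gene in log2 CPM with its 95% interval, in the limma fit to all 6 libraries (black) and without DICER_KO replicate 3 (orange); filled points passed an adjusted p of 0.05. Scd3 is filled in both fits (0.88 and 0.91), and Scd1 (1.02) and Scd2 (0.29) are filled without DICER_KO replicate 3.

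Levels of different genes were set side by side as CPM per kilobase of exon. Scd1 averaged 617 in DICER_KO and 395 in controls, the highest of the 6 in either group and 6.23 times Scd2 in DICER_KO and 4.41 times in controls. Scd2 came next with 99.1 in DICER_KO and 89.6 in controls. Fads3 followed with 32.5 in DICER_KO and 33.7 in controls, and Elovl1 with 28.5 in DICER_KO and 30.9 in controls. The ranges of these neighbours overlapped in both groups, but Fads3 was above Elovl1 within every library. In DICER_KO replicates 1 to 3, Fads3 had 31, 31.2 and 35.4 and Elovl1 27.5, 27 and 31. In controls 1 to 3, Fads3 had 33.1, 38 and 29.9 and Elovl1 31, 35.2 and 26.5. This difference was not tested. Fads2 averaged 18.2 in DICER_KO and 16.6 in controls, and Scd3 was last with 11.6 in DICER_KO and 6.25 in controls. The order was the same in both groups, and the ranges of all neighbours other than Fads3 and Elovl1 were apart.

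**Figure D4:**
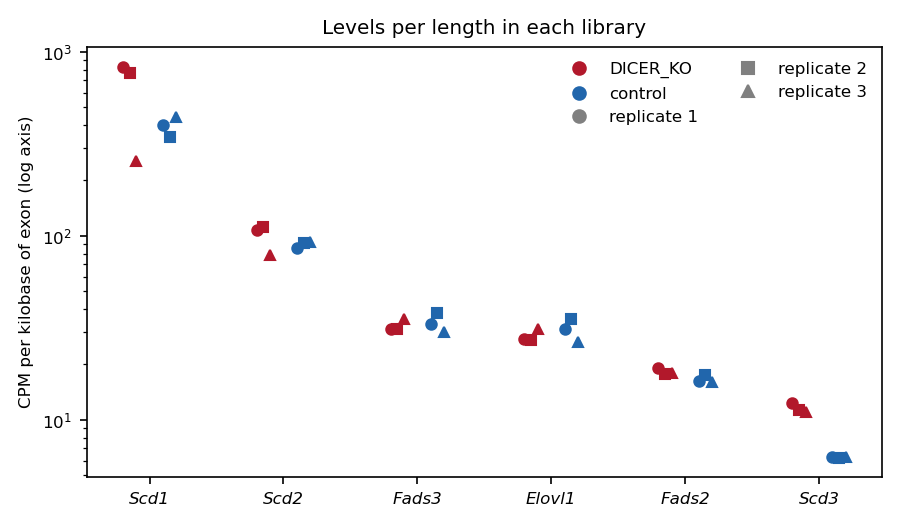
CPM per kilobase of exon on a log axis for each gene in DICER_KO (red, left) and control (blue, right) libraries, with symbols for the replicate number. Scd1 spans 255 to 830 in DICER_KO and 344 to 443 in controls, and Scd3 is lowest in every library.

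Spread between libraries differed among the genes. The DICER_KO libraries spanned 1.70 log2 for Scd1 and 0.50 for Scd2, against 0.37 and 0.11 in controls. Without replicate 3 the DICER_KO span was 0.11 for Scd1 and 0.03 for Scd2. For Fads3 and Elovl1 the DICER_KO spans (0.19 and 0.20) were below those of controls (0.35 and 0.41).

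The genes most like each member over the 6 libraries were found by the root mean square difference of log2 CPM after centring on the control mean, among 8251 genes with a mean of at least 5 CPM. Scd1 was nearest to Rassf6 (0.061 log2) and Adtrp (0.084), and Scd2 to Slc25a51 (0.029) and Oxsm (0.033). Rassf6 had 4.14, 4.04 and 2.48 log2 CPM in the 3 DICER_KO libraries and 2.93 to 3.14 in controls, so it too was low in DICER_KO replicate 3. Scd3 was nearest to Creg1 (0.103) and Abhd6 (0.124), both with DICER_KO libraries wholly above the controls: Creg1 had 6.71 to 7.16 log2 CPM in DICER_KO and 5.93 to 5.97 in controls. Fads2 was nearest to Vps33a and Tgfbrap1, Fads3 to Ptpn23 and Edc3, and Elovl1 to Rpusd1 and Sbf1, at 0.022 to 0.031.

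Partner genes of the desaturases and elongases fell into 7 lists with 54 tested genes. With all libraries 1 of the 54 was called higher and 0 lower, where 0.149% of all genes tested were called higher and 0.288% lower. The called gene was Fa2h in the list of other desaturases (4 of 5 tested). It encodes a fatty acid 2-hydroxylase, which adds a hydroxyl group and no double bond. Fa2h had 1.43, 1.64 and 0.61 log2 CPM in DICER_KO replicates 1 to 3, against -0.91, -0.22 and -0.88 log2 CPM in controls 1 to 3, from 47, 75 and 64 reads in DICER_KO and 12, 19 and 12 reads in controls. Every DICER_KO library was above every control, and the log2 difference was 1.90 (SE 0.34, limma adjusted p = 0.0493). That call was lost when any library other than DICER_KO replicate 3 was left out. Without DICER_KO replicate 3, 16 of the 54 were called higher and 2 lower, where 12.5% of all genes tested were called higher and 7.22% lower. These shares are to be read beside the counts of each list below.

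Elovl3, an elongase of brown fat and skin, was the tested gene with the smallest p among other elongases (2 of 4 tested, median log2 difference -0.34). It is also in the brown and beige marker list. It had 3.09, 3.20 and 1.53 log2 CPM in DICER_KO replicates 1 to 3, against 3.39, 3.30 and 3.17 log2 CPM in controls 1 to 3. DICER_KO replicate 3 was the lowest library. The difference was -0.68 with all libraries (limma adjusted p = 0.368) and -0.14 without DICER_KO replicate 3 (limma adjusted p = 0.488). Of the enzymes that complete the elongation cycle, 4 of 7 were tested, with a median difference of 0.14, and 0 were called with all libraries. Without DICER_KO replicate 3, Hsd17b12, the 3-ketoacyl-CoA reductase, was 0.40 higher in DICER_KO (limma adjusted p = 0.00851), and Hacd2, a 3-hydroxyacyl-CoA dehydratase, was 0.41 higher (limma adjusted p = 0.00811). DICER_KO replicate 3 lay 0.24 and 0.65 below the control mean for these genes. With all libraries their differences were 0.19 and 0.06 (limma adjusted p = 0.549 and 0.91).

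Electron donors of the desaturases (5 of 6 tested) had a median difference of 0.20, with 0 called in all libraries. Cyb5a, cytochrome b5 of the endoplasmic reticulum, had 8.56, 8.33 and 7.70 log2 CPM in DICER_KO replicates 1 to 3, against 7.73, 7.54 and 7.76 log2 CPM in controls 1 to 3. It was above all controls in DICER_KO replicates 1 and 2 and within their range in replicate 3. The difference was 0.52 with all libraries (limma adjusted p = 0.248) and 0.77 without DICER_KO replicate 3 (limma adjusted p = 0.000147). Cyb5b, the mitochondrial outer membrane form, was 0.20 higher (limma adjusted p = 0.436) and 0.34 higher without that library (limma adjusted p = 0.0232).

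Regulators of the SREBP, LXR and ChREBP pathways (20 of 22 tested, median 0.09) had 0 calls with all libraries and 6 higher and 1 lower without DICER_KO replicate 3. Srebf1, which encodes SREBP-1, had 8.95, 8.91 and 7.85 log2 CPM in DICER_KO replicates 1 to 3, against 8.49, 8.50 and 8.26 log2 CPM in controls 1 to 3. As for Scd1, replicate 3 was the lowest and replicates 1 and 2 the highest of the 6 libraries, with a difference of 0.15 in all libraries (limma adjusted p = 0.773) and 0.51 without DICER_KO replicate 3 (limma adjusted p = 0.00296). Nr1h3, the gene of LXRα, was 5.68, 5.70 and 4.78 in DICER_KO, against 4.79, 4.70 and 4.71 in controls, and passed without DICER_KO replicate 3 (0.95, limma adjusted p = 1.89e-05) but not with it (0.65, 0.215). Mlxipl, the gene of ChREBP, and Ppara, a receptor for fatty acids, were 0.68 and 1.65 higher without that library (limma adjusted p = 0.000977 and 2.09e-07). With all libraries their differences of 0.14 and 0.96 did not pass (limma adjusted p = 0.856 and 0.317). Srebf2, the SREBP of cholesterol synthesis, went the other way: it was 7.03, 7.16 and 7.20 in DICER_KO, against 7.53, 7.51 and 7.38 in controls. All 3 DICER_KO libraries were below all controls (-0.35, limma adjusted p = 0.163), and of these fits the one without DICER_KO replicate 3 called it (-0.38, 0.0126). Insig1 and Mid1ip1 are not analysed here.

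Genes that supply saturated acyl-CoA, the substrate of Scd enzymes (11 of 13 tested, median 0.09), had 0 calls with all libraries and 3 higher and 1 lower without DICER_KO replicate 3. Fasn, fatty acid synthase, had 7.93, 7.84 and 8.01 log2 CPM in DICER_KO replicates 1 to 3, against 8.25, 8.27 and 8.11 log2 CPM in controls 1 to 3. It was below the controls in every DICER_KO library (-0.28, limma adjusted p = 0.248), and it passed without DICER_KO replicate 3 (-0.32, limma adjusted p = 0.0291). Acacb, the acetyl-CoA carboxylase at mitochondria, had 7.07, 7.10 and 5.55 in DICER_KO, against 6.09, 5.74 and 5.91 in controls, and was 1.17 higher without DICER_KO replicate 3 (limma adjusted p = 3.72e-06). Acsl1, a long-chain acyl-CoA synthetase that is also in the adipocyte marker list, was 1.00 higher without it (limma adjusted p = 6.81e-06). Both were below all controls in DICER_KO replicate 3, and with all libraries their differences of 0.66 and 0.34 did not pass (limma adjusted p = 0.355 and 0.684).

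Phospholipid acyl remodelling genes (8 of 11 tested, median 0.03) had 0 calls with all libraries and 2 higher without DICER_KO replicate 3. These were Lpcat3, which puts polyunsaturated chains into phospholipids (0.36, limma adjusted p = 0.0179), and Agpat3, an acyltransferase of phosphatidic acid synthesis (0.34, limma adjusted p = 0.0181). With all libraries their differences were 0.19 and 0.12. Of the 16 pathway genes called higher without DICER_KO replicate 3, 12 lay below the control mean in that library. The same share over all genes called higher was not counted, so this is not shown to be particular to the lists.

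**Figure D5:**
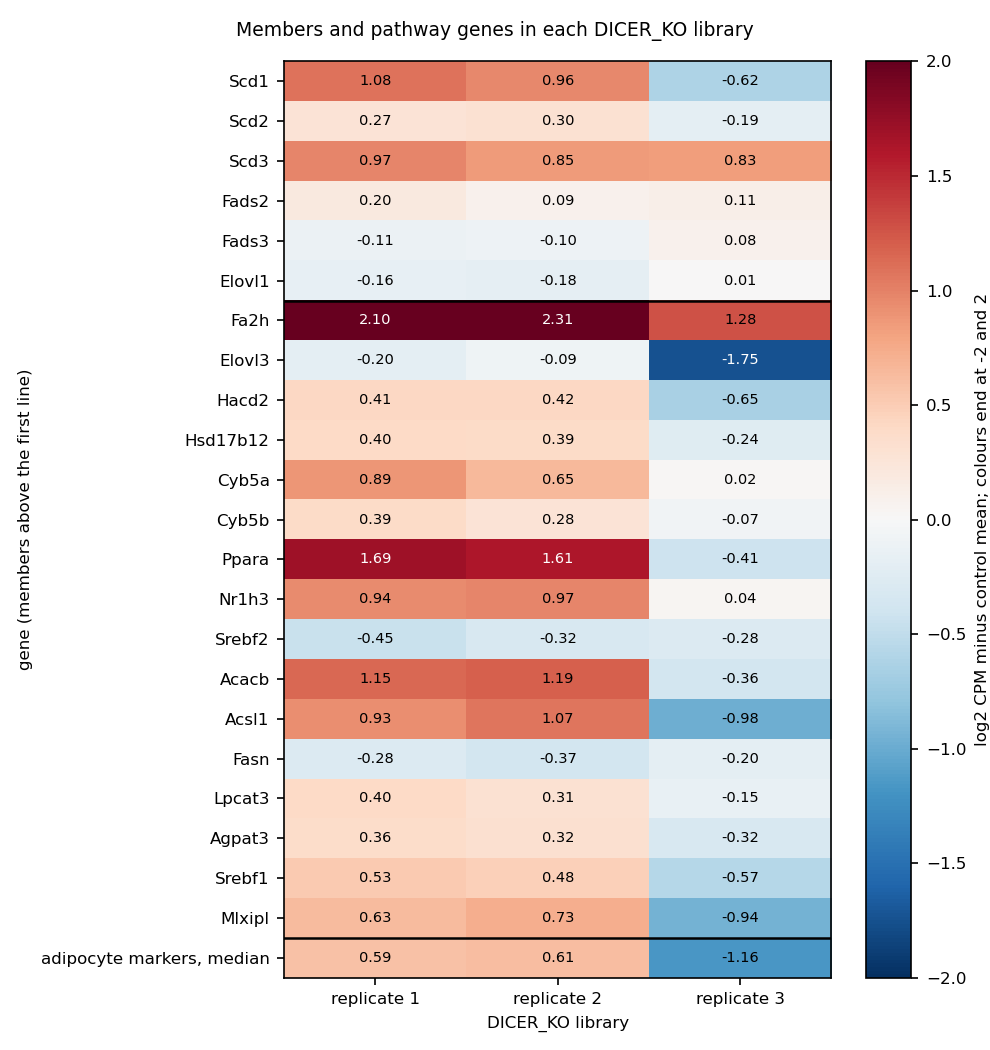
Log2 CPM minus the control mean in each DICER_KO library (columns) for the 6 genes (above the upper line), the named pathway genes and the median of 13 adipocyte markers (bottom row). Scd1, Srebf1, Acacb and Acsl1 change sign in replicate 3 as the marker median does (0.59, 0.61 and -1.16), while Scd3 reads 0.97, 0.85 and 0.83. Acsl1 is itself 1 of the 13 markers.

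DICER matures microRNAs, so 3′ UTRs (the longest one annotated per gene) were searched for 7-base matches to the seeds of 10 listed microRNAs, of which 8 had a sequence in the RefSeq table (GRCm38.p6). The 6 with a match in a member are printed with the seed (bases 2 to 8) in capitals, and no 2 of them share a seed.
let-7a-5p: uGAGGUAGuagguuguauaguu
miR-29a-3p: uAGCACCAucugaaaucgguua
miR-103-3p: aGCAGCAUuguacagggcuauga
miR-27a-3p: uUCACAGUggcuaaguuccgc
miR-26a-5p: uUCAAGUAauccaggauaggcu
miR-30a-5p: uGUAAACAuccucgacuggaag
Each of the following 30-base stretches of UTR has the match in capitals.
Scd1, let-7a-5p: ccagatcctccCTACCTCcaactcatgtgc
Scd2, let-7a-5p: atattcctgacCTACCTCcacgggtaggtg
Scd1, miR-29a-3p: tagggtgagcaTGGTGCTcagtccctgttt
Scd2, miR-27a-3p: cgcctaacaatACTGTGActcagtattctg
Scd2, miR-103-3p: ctcagaagacgATGCTGCgcgccttctccc
Fads3, miR-103-3p: gactgtgtttcATGCTGCccctagtggtag
Fads2, miR-26a-5p: gctgggattggTACTTGAggcttctttcca
Elovl1, miR-30a-5p: tagctctggctTGTTTACaaacaaaaggga
The let-7 match lies 1557 bases into the 3464-base UTR of Scd1 and 3288 bases into the 3664-base UTR of Scd2. It occurs in 10.7% of 9494 tested genes with a UTR, and in 18.4% and 19.7% of those with UTRs about as long as those of Scd1 and Scd2. Among UTRs of like length, the miR-29a-3p match of Scd1 occurs in 29.9% and the miR-27a-3p match of Scd2 in 34.8%. For miR-103-3p it was 27.6% (Scd2) and 17.4% (Fads3), for miR-26a-5p 10.5% (Fads2) and for miR-30a-5p 9.28% (Elovl1). Scd3, the gene that passed with all libraries, had no match to any of the 8 seeds in its 2157-base UTR. The share of UTRs without any of the 8 was not counted. The miR-33-5p and miR-21a-5p seeds matched none of the 6 genes. A match is a run of letters and not a site in use, and microRNA levels were not measured in these poly(A) libraries.

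Promoters in the RefSeq table (250 bases before to 50 after the start) were searched on both strands for TCACNCCAC (a sterol regulatory element), CCAAT (bound by NF-Y), CACGTG (an E-box), GGGCGG (bound by Sp1) and TGACGTCA (a cyclic AMP response element). Scd3, Fads2, Fads3 and Elovl1 are in that table. GGGCGG was found for Fads2, Fads3 and Elovl1, as in 35.7% of 32851 promoters, and CCAAT for Fads3 and Elovl1, as in 37.4%. TCACNCCAC (1.24%), CACGTG (7.15%) and TGACGTCA (1.79%) were found in none of the 4 genes, and Scd3 held none of the 5 motifs in this window.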

How the data were processed

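Poly(A) RNA of 6 cultures was made into libraries with the NEBNext Ultra II kit and sequenced as pairs of 150 bases, per the labels' protocols and the series' design text. The values the authors deposited are log2 CPM, in 6 columns that each belong to 1 library. The submitters' processing notes list edgeR, featureCounts, HISAT2, Trimmomatic and FastQC, and GRCm38 and mm10; versions and roles are not given in the sources used here. Each deposited log2 value corresponds to a whole number of reads plus 0.5 within 0.01 reads, scaled to CPM, and these reads are the ones printed. A plan that allowed for counts was replaced by limma, because the deposited unit is log2.

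Entrez IDs were matched to symbols in the RefSeq annotation of GRCm38.p6 (13682 of 13734 matched), which also gave the coordinates. Exon lengths, coding sequences and 3′ UTRs came from GENCODE M21. The 10054 genes that reached 1 CPM in at least 3 libraries were fitted with limma 3.58.1 (R 4.3.3) with an intensity trend and the group as the only term. P-values were adjusted over these 10054 genes by the Benjamini-Hochberg method, and calls used a threshold of 0.05. The fit was repeated without DICER_KO replicate 3, and under the alternatives in the closing section. Ratios between Scd genes were compared by exact permutation tests. Other steps used Biopython 1.88, scipy 1.17.1, pandas 2.3.3, numpy 2.4.6 and matplotlib 3.10.9 in Python 3.11.15.

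Members, gene lists and marker lists were chosen with earlier results of these data known. The named genes are the members, Dicer1, Scd4, Srebf1, Nr1h3, Mlxipl, Fasn, and for each list every gene past the threshold with all libraries, up to 2 higher and 2 lower past it with the smallest p without DICER_KO replicate 3, or, where neither gave any, the gene with the smallest p.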

Additional observations from a re-analysis of the deposited data

How the results depend on the processing

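The direction of Scd1, Scd2, Scd3, Fads2 and Elovl1 was the same under all alternatives run, while Fads3 ran from -0.13 to 0.05 when a library was left out, and turned to 0.05 without control replicate 2. Leaving out each library in turn, the log2 difference was 0.17 to 1.02 for Scd1, 0.04 to 0.29 for Scd2 and 0.84 to 0.91 for Scd3 (limma adjusted p 4.21e-05 to 0.0786). Genes called higher ran from 0 to 1257 and lower from 1 to 726, members called higher from 0 to 3, and pathway genes called higher from 0 to 16 and lower from 0 to 2. The difference in the log2 ratio of Scd3 to Scd1 ran from -0.11 (without DICER_KO replicate 3) to 0.67, Scd1 to Scd2 from 0.11 to 0.73 and Scd3 to Scd2 from 0.62 to 0.86. With library weights in limma, 2542 genes were called higher and 1942 lower, with 3 members higher (Scd1 0.89, Scd2 0.32) and 23 pathway genes higher and 10 lower. The estimation of the weights stopped with a warning that convergence was not reached. Without an intensity trend, 6 genes were called higher and 13 lower, and 0 pathway genes; limma-voom, log2(CPM + 1) and a filter of at least 5 CPM in 3 libraries (48 pathway genes tested) also called 0 pathway genes higher. The cause of these changes was not tested.

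Replicate numbers are shared between groups. Deviations from the group means had correlations of 0.20, -0.01 and -0.08 for same-numbered libraries and -0.23 to 0.17 for others. Deviations within groups of 3 libraries cannot settle whether the numbers pair the libraries, and the labels do not say. With a replicate block, 0 genes were called higher and 2 lower, with 0 members and 0 pathway genes called (Scd3 0.88, limma adjusted p = 0.109). Taking the reads expected from Scd1 out of Scd3, and testing Scd3 over Scd2, were chosen after seeing the data. The second fit, without DICER_KO replicate 3, was planned with earlier results of these data known. Scaling to the reads on genes in the table or to median-of-ratios size factors shifted the median of all genes by under 0.1 log2. Scd3 rested on 500 to 1666 reads in a library and Scd1 on 38164 to 91078, so counting error weighs more on Scd3.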
